A study of Mus musculus with 20 samples.

Results

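The libraries described here are the 7 skeletal muscle libraries of FLASH-irradiated and sham-treated mice, out of 20 RNA sequencing libraries of the series. Wild-type C57BL/6J mice received 35 Gy of electrons on the left hindlimb from a linear accelerator in FLASH mode, which gives the dose at an ultra-high rate (4 libraries), or were left unirradiated (sham, 3 libraries). A further 3 muscle libraries came from mice given 35 Gy at the conventional rate (CONV) and are shown beside them. Tissue was taken 70 days after treatment, all muscle belonged to batch 2 of the labels, and the design asked what each mode left behind in the irradiated limb. All groups shared the strain and genotype, and the labels give neither age nor which hindlimb muscle was taken. The labels number the replicates but leave unsaid whether different numbers are different animals. The p-values therefore reflect variation among libraries, part of which may be technical.

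The 7 libraries were chosen by the title of the record that holds each file. The file itself carries a library name, and for 5 of the 7 that name belongs to another record. FLASH 1 holds a file named for another FLASH library, FLASH 2 and FLASH 3 hold files named for sham libraries, and sham 2 and sham 3 hold files named for FLASH libraries. FLASH 4 and sham 1 carry names that match their records. The comparison was therefore made by record and repeated by library name, where FLASH-named libraries are FLASH 1, FLASH 4, sham 2 and sham 3, and sham-named libraries are sham 1, FLASH 2 and FLASH 3. No value given here settles which of the assignments is right. Libraries are called by their record throughout.

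Ionizing radiation breaks DNA, and cells answer through p53, a transcription factor whose targets stop the cell cycle (Cdkn1a), start cell death (Bax) or limit oxidative stress (Sesn2). Muscle fibres no longer divide. Their stem cells, the satellite cells marked by Pax7, do, and macrophages, endothelial cells, fibroblasts and tendon cells lie between the fibres. Late radiation injury of muscle is known for loss of fibres, inflammation and deposits of collagen.

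The muscle libraries held 10198699 to 12336479 estimated counts, with 17629 to 18662 genes detected, and the 10 most abundant genes took 60.0% to 65.1% of counts. Muscle fibre markers summed to 60970 to 71260 CPM (counts relative to library size) in FLASH libraries and 62160 to 73600 CPM in sham libraries. CPM of single genes was also scaled by TMM, while marker sums here and below were not. Keratinocyte markers summed to 7.91, 11.1, 8.07 and 21.0 CPM in FLASH 1 to 4 and 6.72 to 11.4 CPM in sham libraries. Krt1 was at 0 in all 7. In FLASH 4, Krt5, Krt14 and Dsp had 32, 30 and 68 counts, against 0 to 2 of each in the other FLASH and sham libraries. The part of skin in the results below was not tested. Fibre-type genes varied widely within both groups. Myh7, the myosin of slow fibres, stood at 440, 46.2, 0.921 and 120 CPM in FLASH 1 to 4 and at 40.7, 3.98 and 227 CPM in sham 1 to 3. The part of fibre type in the results below was not tested either.

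By record, the leading differences between FLASH and sham muscle were in genes of tendon and extracellular matrix, which were higher in FLASH libraries, and none passed the adjusted threshold. Of 13080 genes tested with edgeR's quasi-likelihood test, 0 had an adjusted p (Benjamini-Hochberg, over all genes tested) under 0.05 (0%), and the smallest adjusted p was 0.999. At an unadjusted p under 0.05 there were 327 genes (2.5%), 212 higher (1.62%) and 115 lower (0.879%) in FLASH libraries. The 2.5% is a smaller share than that threshold gives on average when no gene differs. In 499 genes (3.81%) the libraries of the groups did not overlap, 268 higher (2.05%) and 231 lower (1.77%) in FLASH. The median log2 fold change over all genes was -0.004, and 49.2% of genes lay above 0. DESeq2, another test for counts, called 1 gene (0.00765%), the ribosomal protein pseudogene Rpl10a-ps1, whose reads a near-identical gene can share.

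Gene lists were chosen with earlier results of these data known, so shares of their members are descriptions and not tests. In all, 42 lists were scored, and 18 of them are plotted below. Among the lists the tendon list showed the clearest grouping by record. Of its 11 tested members, 10 were higher in FLASH libraries, with a median log2 fold change of 0.95. At an unadjusted p under 0.05 were 6 members (54.5%, against 1.62% of all genes in that direction). For 5 of the 11, against 2.05% of all genes, all FLASH libraries lay above all sham libraries. Comp, a pentameric matrix protein of tendon and cartilage, had 27.1, 9.07, 8.19 and 15.2 CPM in FLASH 1 to 4, against 2.77, 1.27 and 5.83 CPM in sham 1 to 3. Every FLASH library exceeded every sham library, with a log2 fold change of 2.19 ± 0.59 (SE, unadjusted p = 0.00601, adjusted p = 0.999, edgeR). Chad (chondroadherin, a leucine-rich matrix protein) had 36.3, 12.6, 13.2 and 15.0 CPM in FLASH libraries and 3.34, 1.19 and 5.02 CPM in sham libraries. Its log2 fold change was 2.61 ± 0.74, and FLASH 1 stood well above the other FLASH libraries. Fmod, which encodes the collagen-binding fibromodulin, had 178, 96.1, 84.3 and 141 CPM in FLASH libraries and 45.3, 15.2 and 80.5 CPM in sham libraries. Fmod was at 1.41 ± 0.58 on the log2 scale, and the gap between the lowest FLASH library and the highest sham library was small. Mkx, a transcription factor of tendon cells, was higher by 0.95 ± 0.33 without overlap, at low counts. It had 18, 13, 15 and 22 counts in FLASH 1 to 4 and 10, 8 and 8 counts in sham 1 to 3. Scx, the defining transcription factor of tendon progenitors, had a log2 fold change of -0.25 ± 0.38 and overlapping libraries.

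Collagen and matrix genes differed less. Of the 29 tested members of the fibrillar collagen and matrix list, 28 were higher in FLASH libraries, and the median log2 fold change was 0.26. At an unadjusted p under 0.05 were 3 members, all higher (10.3%, against 1.62% of all genes in that direction). Those were Thbs2 (0.97 ± 0.33), Col12a1 (1.28 ± 0.43) and Fmod, which the tendon list holds too. Col12a1, a collagen that binds to fibril surfaces, had 36.0, 20.7, 20.5 and 31.9 CPM in FLASH libraries and 9.27, 5.00 and 19.6 CPM in sham libraries. Col1a1, the main fibrillar collagen, had 300, 261, 81.9 and 143 CPM in FLASH libraries and 75.1, 64.8 and 168 CPM in sham libraries. Its groups overlapped, and the log2 fold change was 0.94 ± 0.52. Col3a1 averaged 152 ± 41.2 CPM in FLASH (SD, n = 4) and 145 ± 60.2 CPM in sham (SD, n = 3), a log2 fold change of 0.07 ± 0.35. In bulk tissue, more cells of a type and more RNA per cell cannot be told apart. Summed tendon markers were 403, 191, 192 and 286 CPM in FLASH libraries and 86.4, 48.5 and 189 CPM in sham libraries, so the lowest FLASH and the highest sham library were almost level. Their part in the matrix result was not tested. Of 14 fibroblast genes, 11 were higher, by a median of 0.16, with 0 at an unadjusted p under 0.05 and 0 without overlap. Without sham 1 the matrix median was 0.07, and without sham 3 it was 0.52. Without sham 3 the matrix list had 13 members at an unadjusted p under 0.05, without FLASH 3 it had 8, without sham 2 it had 1 and without sham 1 it had 0. Without FLASH 1 it had 2 at that p. The tendon list had 4 to 8 when each library was left out in turn. It had 4 without sham 1, sham 2 or FLASH 1.

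**Figure D1:**
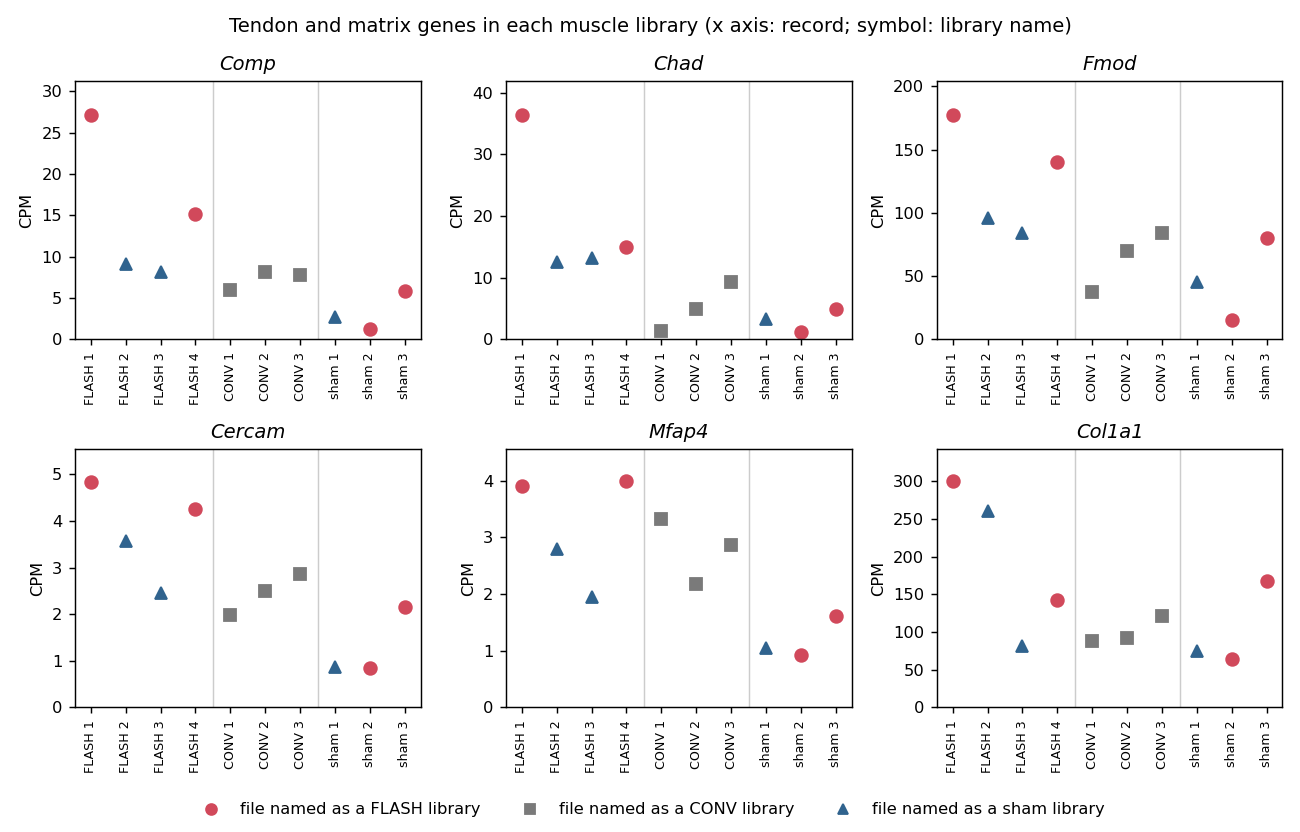
CPM (y axes) of 6 tendon and matrix genes in each muscle library, with records along the x axis and the symbol giving the group named by the file. By record, all FLASH libraries lie above all sham libraries for Comp, Chad, Fmod, Cercam and Mfap4 and the groups overlap for Col1a1, while the red circles (FLASH-named) and blue triangles (sham-named) overlap in every panel.

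The 10 higher genes with the smallest p by record included further matrix and cell-surface genes, each with FLASH libraries above all sham libraries. Cercam, a glycosyltransferase-like protein, had 4.84, 3.57, 2.46 and 4.26 CPM in FLASH libraries and 0.860, 0.848 and 2.15 CPM in sham libraries (log2 fold change 1.56 ± 0.34). Mfap4, a protein of elastic microfibrils, was higher by 1.40 ± 0.31, and Chrdl1, an antagonist of bone morphogenetic proteins, by 1.21 ± 0.31. The matrix genes Olfml3 and Ecm2 were higher by 0.89 ± 0.23 and 0.54 ± 0.14. Arhgap23 (chromosome 11, 97415533 to 97502402, plus strand, GRCm38) had the smallest p of any named gene here. It stood at 10.5, 11.4, 10.5 and 11.3 CPM in FLASH libraries and at 7.07, 6.95 and 7.89 CPM in sham libraries. That is a log2 fold change of 0.58 ± 0.12 (unadjusted p = 0.000214, adjusted p = 0.999). Ctnnd2, which encodes delta-catenin, was at 0.85 ± 0.20, the protocadherin Fat4 at 0.41 ± 0.10 and the Hedgehog co-receptor Gas1 at 0.57 ± 0.15. Asdurf, a reading frame that lies upstream of Asnsd1 in shared transcripts, was at 0.98 ± 0.26, and its counts are uncertain for that reason. By library name the log2 fold changes of Arhgap23, Ctnnd2, Fat4 and Gas1 were -0.08, -0.19, -0.11 and -0.21, so their direction depends on the assignment.

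The 10 lower genes with the smallest p by record came from unlike functions. Spry2, an inhibitor of receptor tyrosine kinase signalling, had 5.94, 6.80, 5.83 and 5.81 CPM in FLASH libraries and 8.60, 8.14 and 7.89 CPM in sham libraries. Its log2 fold change was -0.43 ± 0.13 (unadjusted p = 0.00491, adjusted p = 0.999). Tfam, which packs and transcribes mitochondrial DNA, averaged 11.4 ± 0.359 CPM in FLASH and 14.2 ± 1.35 CPM in sham, at -0.31 ± 0.11. Socs2, an inhibitor of growth hormone signalling, was at -0.84 ± 0.27 and was the only gene of the 10 whose groups overlapped. Icam2, an adhesion molecule of endothelium, was at -0.67 ± 0.24, and Trib2, a pseudokinase, at -0.47 ± 0.15. Cmtr2, which methylates the mRNA cap, was at -0.75 ± 0.24, the splicing factor Syf2 at -0.39 ± 0.12 and the zinc finger gene Zfp771 at -0.62 ± 0.21. Tmem267 was at -0.75 ± 0.19 and Nme7 at -0.77 ± 0.27. By library name Tmem267, Cmtr2, Socs2, Tfam and Icam2 had log2 fold changes above 0.

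Genes of radiation response and muscle wasting showed little by record. Cdkn1a, the p53 target that encodes the cell cycle inhibitor p21, had 16.6, 2.62, 3.99 and 16.8 CPM in FLASH 1 to 4 and 1.91, 5.43 and 15.6 CPM in sham 1 to 3. Both groups thus held high and low libraries, and the log2 fold change was 0.39 ± 0.83. Of 22 tested p53 targets, 10 were higher, the median log2 fold change was -0.02, and 0 had an unadjusted p under 0.05. The muscle ubiquitin ligases Fbxo32 and Trim63 were at -0.23 ± 0.21 and -0.18 ± 0.14, with overlapping libraries. Pax7 was at -0.28 ± 0.33 and glutamine synthetase (Glul) at 0.09 ± 0.18. The myosin genes Myh2, Myh4 and Myh7 were at 0.82 ± 1.05, -0.08 ± 0.20 and 0.75 ± 1.99. Macrophage genes had a median of 0.24 (16 of 17 higher, 0 at an unadjusted p under 0.05) and MHC presentation genes 0.21 (15 of 16 higher, 0 at that p). Fatty acid genes had a median of -0.08 and nuclear genes of the respiratory chain -0.09, with 4 of 19 and 2 of 19 higher and 0 at that p. The 13 mitochondrially encoded respiratory chain genes were all lower, with a median of -0.13 and 0 at that p. These medians turned on single libraries. Without sham 2 the median was 0.21 for fatty acid genes, 0.10 for nuclear and 0.13 for mitochondrially encoded respiratory chain genes, and without FLASH 2 it was 0.039 for fatty acid genes. Without sham 1 it was -0.10 for macrophage genes and 0.070 for MHC genes, without sham 3 it was 0.63 for macrophage genes, and without FLASH 4 it was 0.023 for MHC genes. The p53 median was 0.054 without sham 3 and 0.029 without FLASH 3. The share of counts from mitochondrial genes was 8.49%, 5.88%, 8.99% and 6.77% in FLASH 1 to 4 and 5.67%, 11.01% and 7.75% in sham 1 to 3.

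Grouped by library name, the same libraries gave another picture. At an unadjusted p under 0.05, higher in FLASH-named libraries were 7 of 22 p53 targets including Cdkn1a, 10 of 17 macrophage genes, 9 of 16 antigen presentation genes and 9 of 19 fatty acid genes. Lower were 7 of 15 fast-fibre genes. These lists too were chosen with earlier results of these data known, so their shares describe and do not test. No gene passed the adjusted threshold by edgeR here either: 0 of 13080 (0%), with a smallest adjusted p of 0.0809, shared by Ttyh2 and Bhlhe41. At an unadjusted p under 0.05 there were 1293 genes (9.89%), 655 higher (5.01%) and 638 lower (4.88%) in FLASH-named libraries. The groups did not overlap in 1422 genes (10.9%), 651 higher (4.98%) and 771 lower (5.89%). The median log2 fold change over all genes was 0.006, and 51.2% of genes lay above 0. DESeq2 on the same libraries called 37 genes (0.313%), 30 higher (0.254%) and 7 lower (0.0593%), so the call depended on the tool. Without sham 2, edgeR called 17 genes (0.131%), 14 higher (0.108%) and 3 lower (0.0231%). With no filter on low counts it called 34 (0.148%), 28 higher (0.122%) and 6 lower (0.0261%). In what follows, values of FLASH-named libraries are given in the order FLASH 1, FLASH 4, sham 2 and sham 3, and those of sham-named libraries in the order sham 1, FLASH 2 and FLASH 3.

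**Figure D2:**
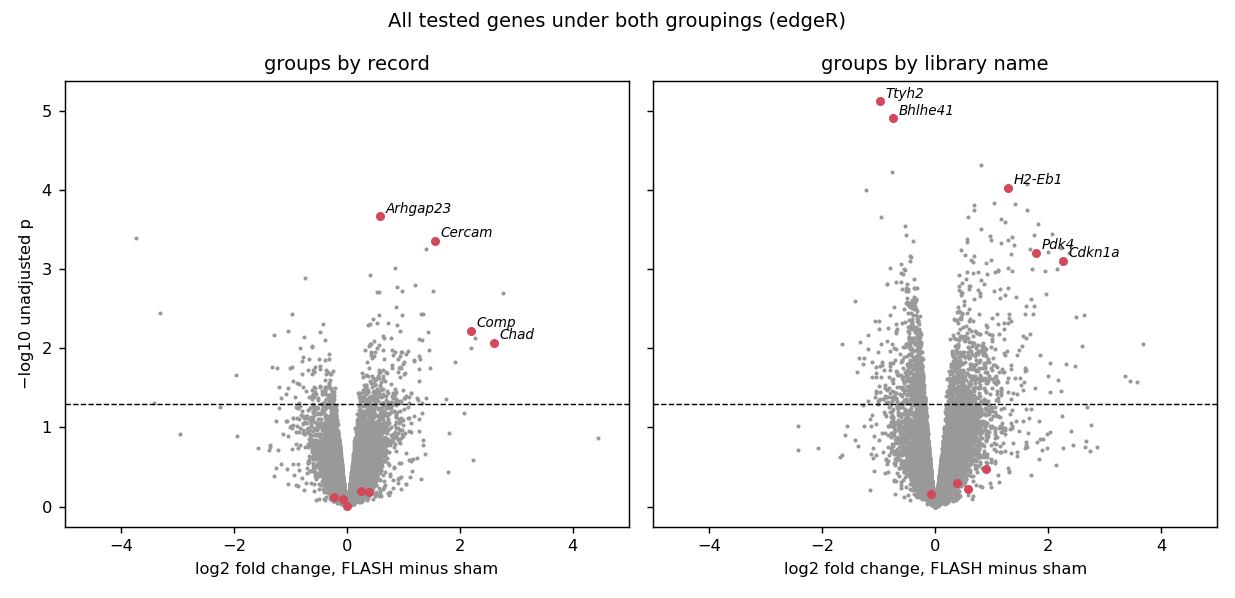
Log2 fold change (x axis, FLASH minus sham) against minus log10 of the unadjusted p (y axis) for all 13080 genes, by record on the left and by library name on the right; 7 points lie beyond the x axis limits. The dashed line marks the unadjusted threshold, and red points are named genes, labelled where they lie above it. By record the tendon genes Comp and Chad stand out to the right, by library name Cdkn1a, Pdk4 and H2-Eb1, with Ttyh2 and Bhlhe41 on the left.

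Cdkn1a (ENSMUSG00000023067, chromosome 17, 29090976 to 29100727, plus strand, GRCm38) had 16.6, 16.8, 5.43 and 15.6 CPM in FLASH-named libraries, 14.9, 19.6 and 18.2 CPM in CONV libraries, and 1.91, 2.62 and 3.99 CPM in sham-named libraries. All FLASH-named libraries lay above all sham-named ones, and sham 2 lay far below the rest of its group. The log2 fold change was 2.27 ± 0.44, with an adjusted p of 0.219 by edgeR and 5.75e-07 by DESeq2. Without sham 2 the edgeR adjusted p was 5.01e-05, the log2 fold change being 2.53 ± 0.20. Using only the libraries whose group is the same by record and by file name (FLASH 1, FLASH 4 and sham 1, where the lone sham library is assumed to vary like the other groups), Cdkn1a was higher by 3.11 ± 0.27 (adjusted p = 0.00541, edgeR). That fit called 6 of 13914 genes (0.0431%), all higher in FLASH. Beside Cdkn1a they were Cd74, Col12a1, H2-Aa, Cilp and Lyz2, which are listed because the fit called them.

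p53 binds DNA as a tetramer at a pair of decamers, and the promoter of Cdkn1a is among its best known targets. RefSeq (GRCm38.p6) gives Cdkn1a a pair of start sites, and the window of 250 bases before and 50 after the upstream one (chr17:29090729-29091028, plus strand) is shown because it holds the element and because Cdkn1a differed most among the p53 targets. Capitals mark a match to the p53 response element: 20 bases in a pair of adjacent 10-base repeats. The fixed C and G of each repeat had to be in place, with at most 1 mismatch elsewhere. The consensus reads alike on both strands.

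Cdkn1a upstream start: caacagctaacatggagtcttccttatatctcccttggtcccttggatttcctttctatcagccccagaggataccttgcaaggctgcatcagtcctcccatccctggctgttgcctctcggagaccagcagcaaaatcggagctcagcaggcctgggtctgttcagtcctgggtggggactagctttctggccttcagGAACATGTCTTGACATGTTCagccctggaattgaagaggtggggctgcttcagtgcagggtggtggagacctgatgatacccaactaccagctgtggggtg

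The window of the downstream start (chr17:29093519-29093818) has no such match. Of the 32851 promoter windows in the table, 22 hold one (0.067%). A match is a description of the letters and says nothing of binding in these samples.

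Of 22 tested p53 targets, 15 were higher and 7 lower in FLASH-named libraries, and 0 passed the adjusted threshold. The median log2 fold change was 0.16, and 7 (31.8%, against 5.01% of all genes in that direction) had an unadjusted p under 0.05. They were Trp53inp1, Cdkn1a, Bax, Btg2, Sesn2, Fas and Zmat3, and in the first 6 the groups did not overlap. Trp53inp1, which promotes autophagy and cell death, had 11.4, 14.4, 11.6 and 12.7 CPM in FLASH-named libraries, 13.9, 13.6 and 13.9 CPM in CONV libraries and 7.17, 9.24 and 9.004 CPM in sham-named libraries (0.56 ± 0.13). The pore-forming death gene Bax had 5.70, 5.17, 4.15 and 5.20 CPM in FLASH-named libraries and 2.77, 3.49 and 3.79 CPM in sham-named libraries (0.60 ± 0.18). Leaving out each library in turn left 6 or 7 of the list higher at an unadjusted p under 0.05, and the median was 0.093 without sham 3. Gadd45a, a DNA damage and atrophy gene, was higher by 0.70 ± 0.22, and Depp1, a FoxO target, by 1.63 ± 0.30. Depp1 had 2.89, 1.72, 2.63 and 1.79 CPM in FLASH-named libraries and 0.669, 0.697 and 0.819 CPM in sham-named libraries. Fbxo32 and Trim63 were at 0.19 ± 0.23 and 0.15 ± 0.14, with overlapping groups, so the classical atrophy ligases did not go beyond the spread between libraries. Glul, which glucocorticoids induce in muscle, was higher by 0.39 ± 0.13 without overlap, at 101, 120, 84.4 and 93.7 CPM in FLASH-named libraries and 81.5, 74.6 and 72.6 CPM in sham-named libraries. CONV libraries had 206, 292 and 239 CPM of Glul.

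**Figure D3:**
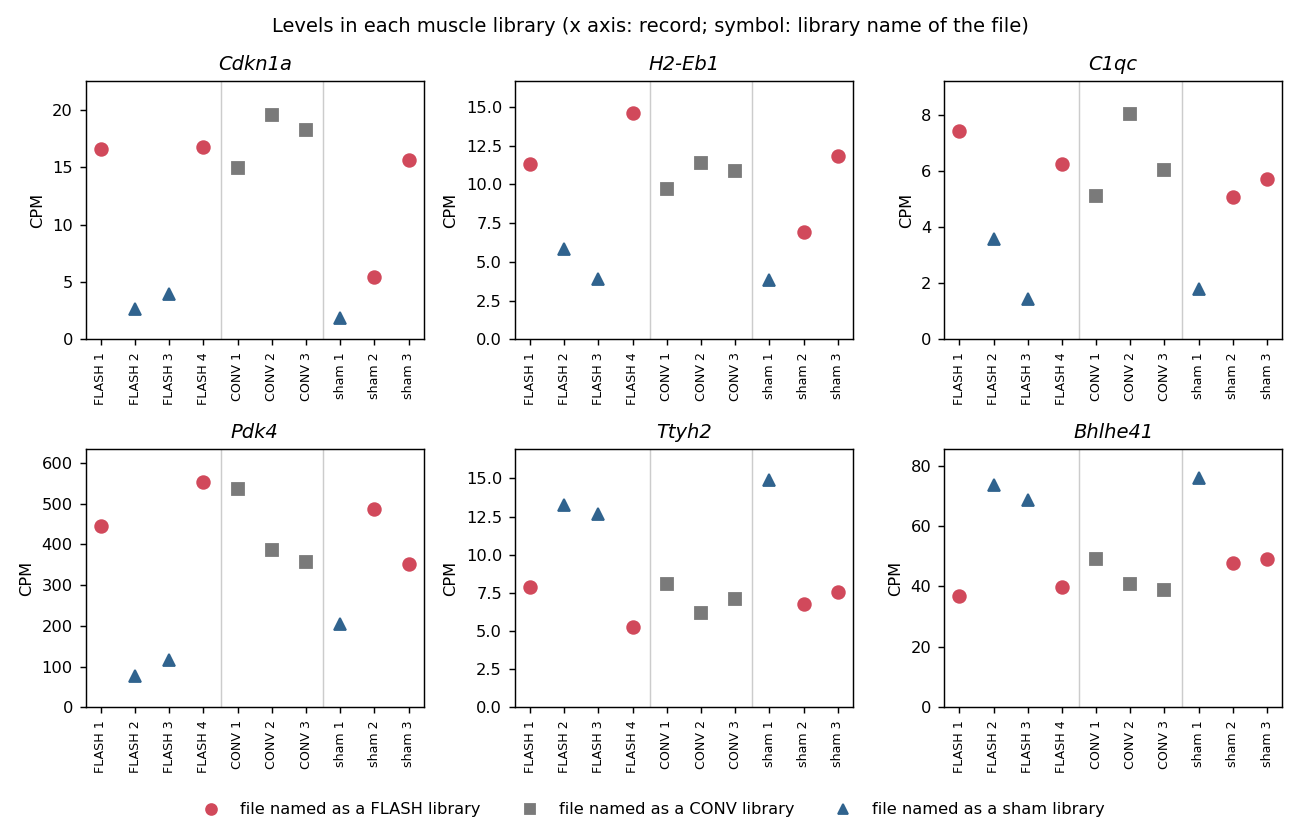
CPM (y axes) of 6 genes in each muscle library, with records along the x axis and the symbol giving the group named by the file. In each panel the red circles (FLASH-named) and blue triangles (sham-named) do not overlap, while the FLASH and sham records do. The CONV libraries (grey squares) are shown beside them.

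Macrophages clear debris and present antigen, and their genes were the group with the largest share of members at an unadjusted p under 0.05 by library name among the 18 lists described here. All 17 tested macrophage and complement genes were higher in FLASH-named libraries, with a median log2 fold change of 0.94. Of these, 10 had an unadjusted p under 0.05 (58.8%, against 5.01% of all genes in that direction). In 6 the groups did not overlap, against 4.98% of all genes in that direction. C1qc, a chain of complement C1q, had 7.42, 6.26, 5.09 and 5.74 CPM in FLASH-named libraries, 5.12, 8.05 and 6.05 CPM in CONV libraries and 1.82, 3.57 and 1.43 CPM in sham-named libraries (1.41 ± 0.27, adjusted p = 0.179). The lysosomal glycoprotein gene Cd68 had 2.03, 2.36, 1.87 and 1.61 CPM in FLASH-named libraries and 0.669, 0.872 and 0.307 CPM in sham-named libraries (1.63 ± 0.33). Ctss, a protease that prepares antigens, was higher by 1.74 ± 0.37, with sham 2 lowest of its group at 2.12 CPM and FLASH 2 highest of the sham-named ones at 1.83 CPM. Summed over 9 macrophage markers, the level was 62.4, 60.6, 43.7 and 58.6 CPM in FLASH-named libraries and 18.5, 48.0 and 21.3 CPM in sham-named libraries. FLASH 2 was thus within the FLASH-named range for the sum. Without FLASH 2 the count at an unadjusted p under 0.05 was 15 of 17 and the median 1.81, and edgeR then called C1qc (adjusted p = 0.0381). The count was 7 without any of sham 1, sham 3, FLASH 1 or FLASH 3. Neutrophil markers summed to 2.06 to 3.12 CPM in FLASH-named libraries and 1.53 to 2.43 CPM in sham-named libraries, and Retnlg was at 0.

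Genes of antigen presentation by MHC molecules were higher as well. Of 16 tested, 15 were higher in FLASH-named libraries, and the median log2 fold change was 0.64. At an unadjusted p under 0.05 were 9, all higher (56.2%, against 5.01% of all genes in that direction). The median was 0.41 without FLASH 4 and 0.97 without FLASH 2. H2-Eb1, a class II beta chain, had 11.3, 14.6, 6.95 and 11.8 CPM in FLASH-named libraries, 9.71, 11.3 and 10.9 CPM in CONV libraries and 3.82, 5.84 and 3.89 CPM in sham-named libraries. The groups did not overlap, and the log2 fold change was 1.29 ± 0.23 (adjusted p = 0.179 by edgeR and 0.000934 by DESeq2). Ciita, the master activator of class II genes, had 4.61, 5.44, 2.46 and 3.32 CPM in FLASH-named libraries and 1.91, 1.57 and 1.13 CPM in sham-named libraries (1.35 ± 0.30). H2-DMb1, which loads peptides on class II molecules, had 0.937, 1.54, 1.19 and 1.08 CPM in FLASH-named libraries, 0.349 and 0.307 CPM in FLASH 2 and FLASH 3 and 0 in sham 1 (2.37 ± 0.55, at very low counts). H2-Aa, the class II alpha chain, was chosen after its values were seen, to set its promoter beside that of H2-Eb1. It had 15.9, 16.4, 9.58 and 17.4 CPM in FLASH-named libraries and 4.68, 8.80 and 3.79 CPM in sham-named libraries (1.35 ± 0.28).

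CIITA acts through a protein complex that sits on the X, X2 and Y boxes of class II promoters. Both windows are shown (RefSeq, GRCm38.p6, 250 bases before and 50 after the start, on the strand of the gene) because these genes share that regulator. Capitals mark the Y box (CTGATTGG), the X box (TAGCAAC) and the X2 box (TGACGTCA), searched on both strands; the matches do not overlap each other.

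H2-Eb1 (chr17:34305617-34305916, plus strand): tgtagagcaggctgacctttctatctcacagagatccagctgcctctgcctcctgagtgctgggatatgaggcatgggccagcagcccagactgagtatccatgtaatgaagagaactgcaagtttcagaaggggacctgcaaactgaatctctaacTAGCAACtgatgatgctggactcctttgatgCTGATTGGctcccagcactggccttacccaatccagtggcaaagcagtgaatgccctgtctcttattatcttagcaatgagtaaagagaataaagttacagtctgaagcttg
H2-Aa (chr17:34287774-34288073, minus strand): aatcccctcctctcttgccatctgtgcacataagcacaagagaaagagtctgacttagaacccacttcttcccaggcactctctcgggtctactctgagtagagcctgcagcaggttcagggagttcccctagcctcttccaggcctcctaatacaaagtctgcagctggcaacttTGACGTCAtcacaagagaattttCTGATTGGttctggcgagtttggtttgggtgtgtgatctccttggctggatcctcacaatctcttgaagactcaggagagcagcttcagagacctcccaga

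The Y box stands in both windows, the exact X box letters only in that of H2-Eb1 and the exact X2 letters only in that of H2-Aa. Over all 32851 windows, 4.1% hold the Y box letters, 3.66% the X box letters and 1.79% the X2 letters, so none of them is rare.

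Interferon-stimulated genes were mostly higher in FLASH-named libraries. Of 20 tested, 19 were higher, and the median log2 fold change was 0.47. At an unadjusted p under 0.05 were 7, all higher (35%, against 5.01% of all genes in that direction). The guanylate-binding protein gene Gbp3 had 2.58, 3.36, 2.88 and 2.15 CPM in FLASH-named libraries, 0.719, 1.29 and 2.21 CPM in CONV libraries and 0.955, 1.83 and 0.921 CPM in sham-named libraries (1.12 ± 0.35). Oas2, a sensor of double-stranded RNA, was higher by 1.06 ± 0.36 and Oasl2 by 0.77 ± 0.28. The count at that p was 2 without FLASH 3 or without FLASH 4 and 4 without sham 3.

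Genes of fatty acid use were higher in FLASH-named libraries in every tested member. The 19 genes had a median log2 fold change of 0.58. An unadjusted p under 0.05 was found in 9 (47.4%, against 5.01% of all genes in that direction). In 8 of the 19 the groups did not overlap, against 4.98% of all genes in that direction. Pdk4, the kinase that shuts off pyruvate entry so that fat is burned, had 446, 553, 487 and 353 CPM in FLASH-named libraries, 535, 386 and 356 CPM in CONV libraries and 205, 76.6 and 117 CPM in sham-named libraries. All FLASH-named libraries were above all sham-named ones. The log2 fold change was 1.79 ± 0.34 (adjusted p = 0.212 by edgeR and 0.000885 by DESeq2). The mitochondrial carrier gene Ucp3 had 76.8, 78.8, 83.9 and 72.0 CPM in FLASH-named libraries, 101, 55.9 and 66.6 CPM in CONV libraries and 47.3, 25.7 and 38.6 CPM in sham-named libraries (1.07 ± 0.23). Plin5, which coats lipid droplets, was higher by 1.29 ± 0.31. The list's count at that p was 4 without sham 1, sham 2, FLASH 1 or FLASH 2. The 19 nuclear genes of the respiratory chain were all higher too, by a median of 0.23, with 2 at that p (10.5%, against 5.01% of all genes higher). They were Ndufa9 of complex I (0.32 ± 0.11) and Sdhb of complex II (0.42 ± 0.19). The count was 0 without sham 1, 1 without sham 2, FLASH 1 or FLASH 2, 5 without FLASH 4 and 15 without FLASH 3, and the median was 0.12 without sham 2. Of the 13 mitochondrially encoded genes, 12 were higher, by a median of 0.22, with 0 at that p. The count was 12 without FLASH 3 and 0 without any other library, and the median was 0.056 without sham 2.

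Fast-fibre genes were lower by small amounts in FLASH-named libraries. Of 15 contractile and calcium-handling genes, 14 were lower, the median log2 fold change was -0.30, and 7 (46.7%, against 4.88% of all genes in that direction) had an unadjusted p under 0.05. Casq1, which stores calcium in the sarcoplasmic reticulum, had 691, 778, 825 and 840 CPM in FLASH-named libraries, 826, 568 and 683 CPM in CONV libraries and 1182, 1131 and 1006 CPM in sham-named libraries (-0.50 ± 0.13). The groups did not overlap. Actn3, the fast-fibre actinin, averaged 2720 ± 276 CPM in FLASH-named (SD, n = 4) and 3774 ± 477 CPM in sham-named libraries (SD, n = 3), at -0.47 ± 0.15. The calcium buffer Pvalb was at -0.43 ± 0.15, and Myh4, the myosin of type IIb fibres, at -0.32 ± 0.17 with overlapping groups. The count of fast-fibre genes at that p was 1 without sham 1, 4 without FLASH 1 and 13 without FLASH 3. Of 16 glycolytic genes, 14 were lower, by a median of -0.20, with 1 higher and 2 lower at that p (18.8%, against 9.89% of all genes). Eno3 (-0.26 ± 0.11) and Ldha (-0.25 ± 0.11) had groups that did not overlap. Without FLASH 3 the count of lower glycolytic genes was 4, and without sham 1, FLASH 1, FLASH 2 or FLASH 4 it was 0. These counts with libraries left out cover 17 glycolytic entries instead of 16. The main fit over the 17 also had 1 higher and 2 lower at that p.

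All 15 slow-fibre genes were higher in FLASH-named libraries, with a median log2 fold change of 1.98, but 0 had an unadjusted p under 0.05 in the main fit. The count was 5 with DESeq2, 5 of 14 with the 7 libraries fitted alone and 3 with a dispersion that was not robust. Myh7 had 440, 120, 3.98 and 227 CPM in FLASH-named libraries, 12.1, 2160 and 816 CPM in CONV libraries and 40.7, 46.2 and 0.921 CPM in sham-named libraries (2.75 ± 1.93). Sham 2 lay below both sham 1 and FLASH 2, and the CONV libraries spanned an even wider range. Pln (0.55 ± 0.29), Myl3 (2.40 ± 1.32) and Myoz2 (2.03 ± 1.14) likewise overlapped. Myh2, the myosin of type IIa fibres, was at 1.85 ± 0.91. The part of fibre type in the fast-fibre and fatty acid results was not tested. Sham 2 had the lowest Myh7 of the FLASH-named libraries. Of the 7 libraries it had the most Myh1 (the myosin of type IIx fibres, looked up after its values were seen, at 5790 CPM) and the highest mitochondrial share (11.01%). FLASH 3, a sham-named library with the lowest Myh7 of the 7, came next in both, with a mitochondrial share of 8.99%.

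**Figure D4:**
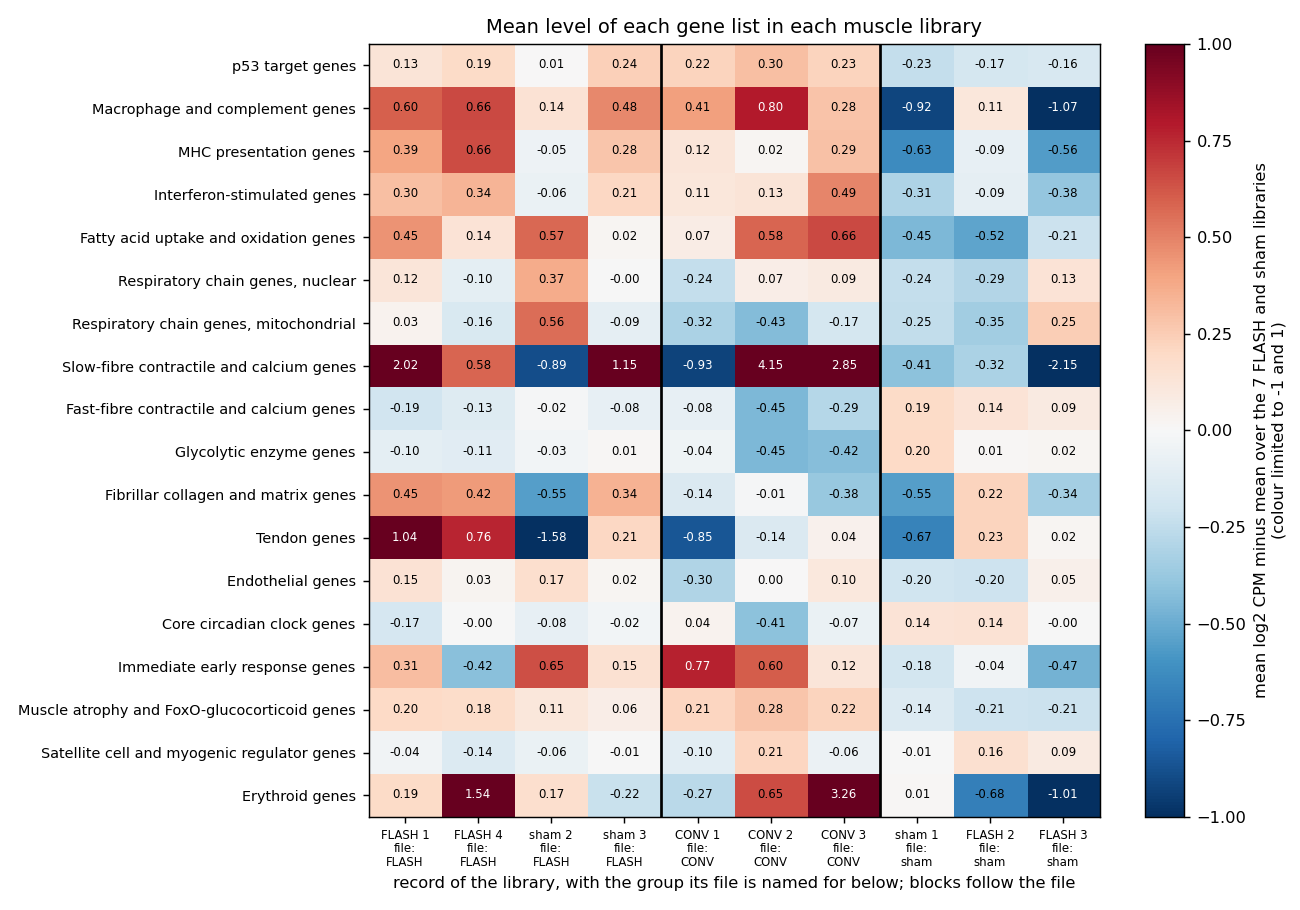
Mean log2 CPM of each gene list (rows) in each muscle library (columns, named by record with the group of the file below), minus the list's mean over the 7 FLASH and sham libraries; red is higher and blue lower, and colour stops at -1 and 1. The macrophage row is at 0.6, 0.66, 0.14 and 0.48 in FLASH-named libraries and at -0.92, 0.11 and -1.07 in sham-named ones, while the slow-fibre, tendon and erythroid rows vary widely within each block.

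Vessel and basement membrane genes were among the smaller differences by library name. Col4a1 and Col4a2 encode the collagen of basement membranes and stand head to head, starting from a shared promoter region. Col4a1 (chromosome 8, 11198423 to 11312826, minus strand) had 145, 110, 111 and 136 CPM in FLASH-named libraries, 103, 93.9 and 90.6 CPM in CONV libraries and 72.8, 88.7 and 94.5 CPM in sham-named libraries. Its log2 fold change was 0.56 ± 0.12 (adjusted p = 0.195), and that of Col4a2 (chromosome 8, 11312805 to 11449287, plus strand) was 0.42 ± 0.11. Both had groups without overlap. Postn, a matrix protein of wound repair, was higher by 1.22 ± 0.38. All 29 matrix genes were higher, by a median of 0.42, but these 3 were the ones at an unadjusted p under 0.05 (10.3%, against 5.01% of all genes higher). The count was 12 without sham 2, 10 without FLASH 2 and 8 with DESeq2 or with a dispersion that was not robust. The matrix median was 0.21 without sham 1, 0.22 without FLASH 1 and 0.64 without FLASH 2. Col1a1 was at 0.28 ± 0.61 and Col3a1 at 0.32 ± 0.35. The endothelial adhesion genes Pecam1 and Cdh5 were higher by 0.52 ± 0.12 and 0.42 ± 0.14. Pecam1 had 37.3, 31.8, 32.2 and 32.9 CPM in FLASH-named libraries and 21.0, 22.0 and 27.3 CPM in sham-named libraries. Apln, a peptide of sprouting endothelium, was higher by 2.47 ± 0.83, yet sham 2 had 0.509 CPM, below sham 1 at 0.669 CPM. With Apln these were the 3 of 18 endothelial genes at an unadjusted p under 0.05 (16.7%, against 5.01% of all genes higher), and 13 of the 18 were higher. The count was 1 without FLASH 2 and 5 without sham 3 or without FLASH 3. Endothelial markers summed to 144 to 187 CPM in FLASH-named and 107 to 146 CPM in sham-named libraries. Tendon genes, which led by record, had a median of 0.52 by library name, with 10 of 11 higher and 0 at an unadjusted p under 0.05. The tendon count was 3 without sham 2 and 0 without any other library, and 2 with DESeq2 or with a dispersion that was not robust. The tendon median was 0.096 without FLASH 1, 0.35 without sham 1 and 0.84 without sham 2.

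The gene with the smallest p by library name was Ttyh2 (chromosome 11, 114675431 to 114720977, plus strand), a membrane protein of the tweety family. It had 7.89, 5.26, 6.78 and 7.53 CPM in FLASH-named libraries, 8.09, 6.20 and 7.11 CPM in CONV libraries and 14.9, 13.2 and 12.7 CPM in sham-named libraries. The groups were far apart for their spread, with a log2 fold change of -0.98 ± 0.15 (unadjusted p = 7.53e-06, adjusted p = 0.0809, edgeR). Bhlhe41 (chromosome 6, 145858243 to 145865558, minus strand), which represses clock genes, had 36.9, 39.9, 47.7 and 49.1 CPM in FLASH-named libraries, 49.2, 40.9 and 38.7 CPM in CONV libraries and 75.8, 73.4 and 68.8 CPM in sham-named libraries. Its log2 fold change was -0.74 ± 0.12 (adjusted p = 0.0809 by edgeR and 0.000199 by DESeq2). With the 7 libraries fitted alone, edgeR called 4 genes (0.0315%). They were Ttyh2, Bhlhe41 and Mafa, all lower (0.0236%), and the muscle actin-signalling gene Abra, which was higher (0.00788%) and is named for that call. Of 18 clock genes, 13 were lower, by a median of -0.19, and 3 had an unadjusted p under 0.05 (16.7%, against 4.88% of all genes lower). Those clock genes were Bhlhe41, Cry1 (-0.46 ± 0.15) and Hlf (-0.59 ± 0.20). The labels give no hour of collection, so time of day and treatment cannot be told apart. Immediate early genes, which respond within minutes to handling, were higher in 18 of 18, by a median of 0.41. At that p were 3 (16.7%, against 5.01% of all genes higher), Ier3 (1.00 ± 0.32), Btg2 (0.98 ± 0.31) and Klf4 (0.64 ± 0.28). The median of the 18 was 0.66 without FLASH 4. By record 15 of the 18 were lower, by a median of -0.29, which was -0.079 without sham 2 and -0.53 without FLASH 1.

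**Figure D5:**
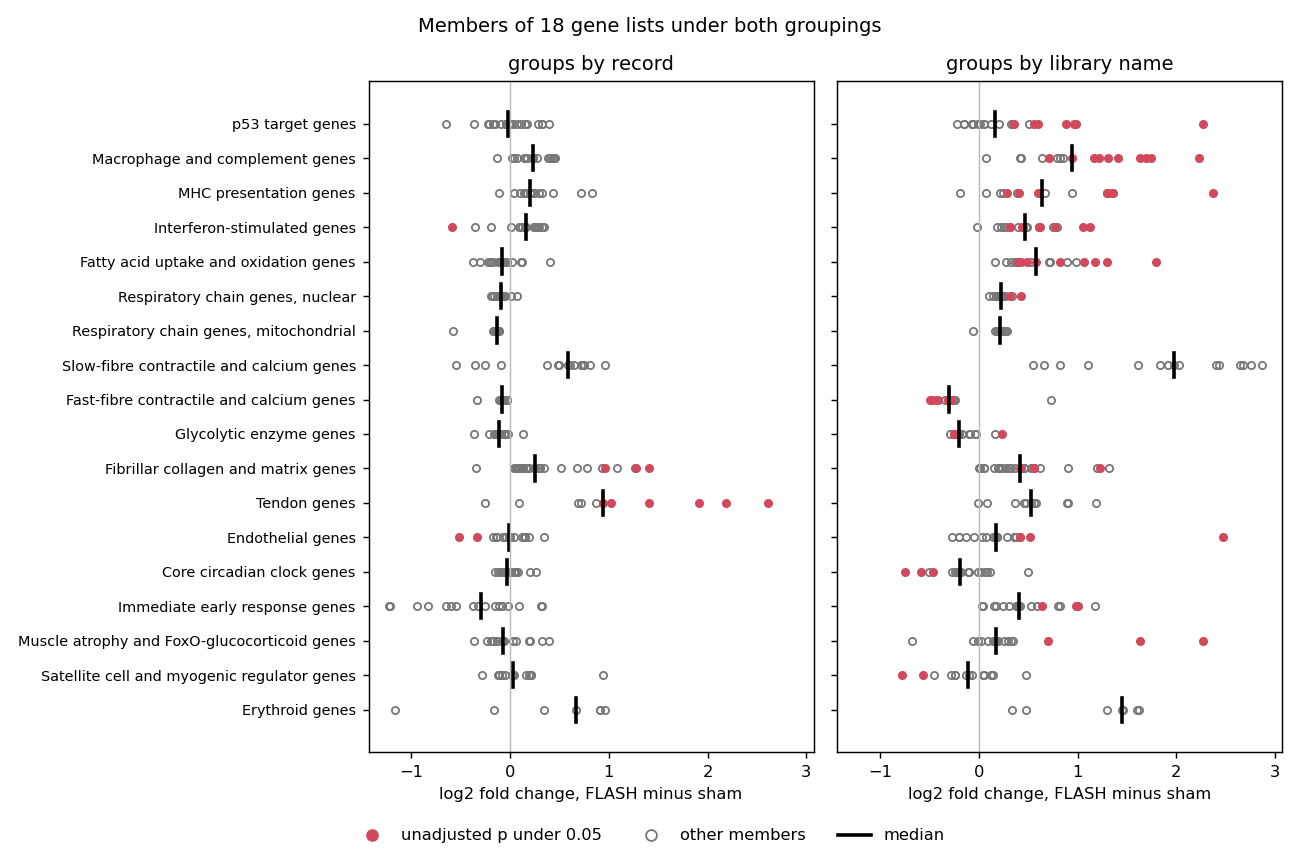
Log2 fold change (x axis, FLASH minus sham) of each tested member of 18 gene lists (rows), by record on the left and by library name on the right; filled red points have an unadjusted p under 0.05 and black bars are medians. By record the tendon row lies farthest from 0 among rows with filled points, at a median of 0.95, and by library name the macrophage row, at 0.94.

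The remaining named genes by library name covered several functions. Mafa, a transcription factor of large Maf type, had 15.2, 19.3, 19.6 and 19.6 CPM in FLASH-named libraries, 21.4, 15.1 and 15.0 CPM in CONV libraries and 29.9, 28.5 and 35.6 CPM in sham-named libraries (-0.77 ± 0.14). Slc37a4, the glucose 6-phosphate transporter of the endoplasmic reticulum, was at -0.54 ± 0.11, and Hsd17b7, an enzyme of cholesterol synthesis, at -0.96 ± 0.20. Pld5 was at -1.24 ± 0.23, the TEAD cofactor Vgll4 at -0.52 ± 0.11 and the glycan-removing enzyme Ngly1 at -0.39 ± 0.09. The kinase Dyrk2 and the beta-catenin cofactor Bcl9l were at -0.45 ± 0.11 and -0.43 ± 0.10. In all 8 the groups did not overlap, and adjusted p ranged between 0.179 and 0.214. Vgll4 had 14.6, 15.9 and 12.3 CPM in CONV libraries, beside 9.45, 10.2, 9.58 and 9.69 CPM in FLASH-named and 14.6, 12.9 and 14.2 CPM in sham-named libraries. CONV was on the sham-named side for this gene. Among the higher genes, the membrane protein gene Myadm had 35.3, 29.7, 21.5 and 31.8 CPM in FLASH-named libraries and 16.4, 17.96 and 16.5 CPM in sham-named libraries (0.80 ± 0.14). Arpc5, a subunit of the actin-branching Arp2/3 complex, was higher by 1.04 ± 0.20, and Pros1, the anticoagulant protein S that also helps macrophages engulf dying cells, by 1.17 ± 0.24. Klf6 was higher by 0.57 ± 0.12, the metalloprotease Adam15 by 0.68 ± 0.14 and Tmem140 by 0.68 ± 0.14, again without overlap. Satellite cell genes did not follow: Pax7 was at 0.15 ± 0.33, while Fgfr4 (-0.77 ± 0.36), Chodl (-0.57 ± 0.26) and Cdh15 (-0.29 ± 0.14) were lower with overlapping groups. Of the 14 satellite cell and myogenic genes, 5 were higher, and 2, both lower, had an unadjusted p under 0.05 (14.3%, against 4.88% of all genes lower). That count was 0 without FLASH 3 and 1 without sham 2, FLASH 1, FLASH 2 or FLASH 4.

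Markers of blood differed between libraries. Haemoglobin and other erythroid markers summed to 245, 593, 149 and 126 CPM in FLASH-named libraries and 114, 95.5 and 63.0 CPM in sham-named libraries, and FLASH 4 was highest. By record the sums were 245, 95.5, 63.0 and 593 CPM in FLASH libraries and 114, 149 and 126 CPM in sham libraries. The part of blood in the macrophage and antigen presentation results was not tested. By library name, every FLASH-named library exceeded every sham-named one in the erythroid sum, but sham 3 (126 CPM) and sham 1 (114 CPM) lay close. Of the 7 tested genes of the erythroid list, 1 was higher without overlap, against 4.98% of all genes in that direction. An unadjusted p under 0.05 was found in 0 of the 7. Macrophage sums were 62.4, 60.6, 43.7 and 58.6 CPM in FLASH 1, FLASH 4, sham 2 and sham 3. They were 18.5, 48.0 and 21.3 CPM in sham 1, FLASH 2 and FLASH 3.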

How the data were processed

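Total RNA of frozen muscle was sequenced after ribosomal RNA depletion with a strand-keeping kit, per the labels' protocols. Estimated counts and TPM per transcript were deposited by the authors; kallisto 0.5.0 and mm10 are named in the submitters' processing notes, and the annotation release is not given in the sources used here. Estimated counts were summed to genes by transcript identifier without its version (114322 of 116116 transcripts matched GENCODE M21), rounded and tested with edgeR 4.0.16 (R 4.3.3; TMM, filterByExpr, robust quasi-likelihood, 10 muscle libraries in 3 groups, Benjamini-Hochberg, threshold 0.05). DESeq2 1.42.0, no filter, other scaling, fewer libraries and a replicate block were alternatives. Standard errors come from the edgeR statistic. TPM was used only for marker ranges. Members and lists were chosen with earlier results of these data known. Named genes were the first 10 higher and first 10 lower by p in each assignment, among protein-coding genes with a mean of at least 1 CPM. A panel of 10 genes and up to 3 genes with the smallest p per list were added without that filter. A few other genes were named outside this rule, some of them after their values were seen. The fit was tested on simulated data.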

Additional observations from a re-analysis of the deposited data

Results flagged for a closer look

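In groups of 4 libraries, 7 named genes had a library farther from the rest than Dixon's 95% critical value allows, among 103 gene and group tests, where chance flags about 1 in 20. By record, Spry2 stood at 6.80 CPM in FLASH 2, against 5.81 to 5.94 CPM in the other FLASH libraries. Icam2 was at 1.18 CPM in FLASH 4, against 1.48 to 1.53 CPM in the others. Chad was at 36.3 CPM in FLASH 1, against 12.6 to 15.0 CPM in the others. By library name, Cdkn1a was at 5.43 CPM in sham 2, against 15.6 to 16.8 CPM in the other FLASH-named libraries, and Pros1 at 4.66 CPM in sham 2, against 8.07 to 8.75 CPM. Mafa was at 15.2 CPM in FLASH 1, against 19.3 to 19.6 CPM in the others. Hlf was at 11.5 CPM in sham 3, against 10.2 to 10.3 CPM in the others.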

How the results depend on the processing

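By record, edgeR called 0 genes with each library left out in turn, while 176 to 330 genes were higher and 111 to 156 lower at an unadjusted p under 0.05. DESeq2 called 1 gene (1 lower), with 118 higher and 53 lower at that p. Without a filter on low counts 333 were higher and 235 lower, and grouped by library name 655 and 638. Libraries of the same group by record and file name gave 6 calls (6 higher), with 669 higher and 371 lower at that p. By library name, DESeq2 called 37 genes (30 higher, 7 lower), edgeR without a filter 34 (28 and 6), and edgeR on the 7 libraries alone 4 (1 and 3). Leaving out each library gave 0 to 17 calls (0 to 14 higher, 0 to 3 lower), with 454 to 711 higher and 362 to 692 lower at that p. The 17 calls came without sham 2, and 1 without sham 1, 4 without FLASH 2 and 1 without FLASH 3. The cause of these changes was not tested.

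Deviations of same-numbered FLASH and sham libraries from their group means had correlations of -0.148, -0.186 and -0.216 by record. By library name the correlations were -0.0573, 0.105 and -0.0443. So few pairs cannot settle whether the numbers pair the libraries. With a replicate block by record, 136 genes were higher at an unadjusted p under 0.05 and 0 were called, and Glul (-0.067) and Col3a1 (-0.051) changed direction on the log2 scale.

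Grouping by library name turned the direction of 13 genes named by record: Arhgap23 (-0.077), Ctnnd2 (-0.19), Fat4 (-0.11), Gas1 (-0.21), Mkx (-0.0050), Tmem267 (0.21), Cmtr2 (0.032), Socs2 (0.37), Tfam (0.022), Icam2 (0.20), Trim63 (0.15), Fbxo32 (0.19) and Pax7 (0.15). With each library left out, log2 fold changes by record spanned -0.055 to 1.43 for Cdkn1a, -0.18 to 0.13 for Myh4, -0.15 to 0.46 for Col3a1, -0.24 to 1.59 for Myh2, -0.70 to 2.77 for Myh7 and -0.066 to 0.19 for Glul. By library name they spanned -0.15 to 1.105 for Col1a1, which was at -0.014 without sham 1 and lowest without FLASH 1, and -0.019 to 0.30 for Pax7, lowest without sham 2. Other size factors and a dispersion that was not robust changed no direction and no call. With a dispersion that was not robust, the slow-fibre count by library name at an unadjusted p under 0.05 was 3 instead of 0. Groups of 3 or 4 libraries and low counts of immune genes limit what these data can show.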
